A study of Mus musculus with 12 samples.

Results

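The lysosome was followed through 30 genes, picked by symbol for roles in its membrane, its digestive enzymes, its proton pump and its control. All 30 were found once each among the 55291 genes of the count table, and all 30 passed the filter on low counts in every comparison. The 12 libraries were made from CD8+ T cells of WT male mice, taken from spleen and lymph nodes, with 3 libraries in each of 4 groups. Cells of the rat tail collagen group (RatCol in the labels) and of the bovine collagen group (Nutragen in the labels) spent the last 24 h before day 4 inside a gel of 2 mg/mL, and those of the media group spent it in liquid culture. All 3 of these groups had first been activated in vitro with anti-CD3 and CD28 and expanded with rmIL-2, whereas naive cells were lysed unactivated on day 0. Gel cells had to be recovered from their gel before lysis, so that step and the gel itself cannot be told apart. The mice are described only as WT males, and nothing says whether the 4 groups came from the same animals, so the p-values measure the spread between these libraries.

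Lysosomes are acidic compartments in which hydrolases digest proteins, sugars and lipids delivered by endocytosis and autophagy. The v-ATPase pumps in the protons that the hydrolases need, LAMP proteins line the membrane, and the transcription factor TFEB switches on many lysosomal genes when mTORC1 on the lysosomal surface is inactive. TFEB and its relatives bind an E-box of the letters CACGTG, which lies near the start of many lysosomal genes. In CD8+ T cells the same pathway also makes the cytotoxic granules, which are lysosome-related organelles.

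The set of RefSeq promoter windows used, from 250 bases before to 50 after the gene's start, covered 24 of the 30 genes. CACGTG stood in 9 of these 24, or 37.5%, against 8.09% of the 27025 genes with a window. The longer form TCACGTGA, which contains CACGTG, stood in 6 of the 24, or 25%, against 1.12% of all genes. Each motif is its own reverse complement, so both strands were read at once. A match is a description of the letters and not of binding. The 9 genes are shown with 12 bases on either side of the CACGTG that lies closest upstream of the start (across it in Atp6v0d1), which is in capitals, because they span all 3 outcomes described below. The first 5 belong to genes that rose in rat tail collagen against media, Ctsa fell, and the last 3 were not called.
Atp6v1a: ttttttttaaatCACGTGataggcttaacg
Atp6v0d1: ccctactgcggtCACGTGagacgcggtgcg
Ctsl: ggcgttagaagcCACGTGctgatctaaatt
Gla: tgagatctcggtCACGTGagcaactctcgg
Glb1: ctgcttctgagtCACGTGgcctacagaggc
Ctsa: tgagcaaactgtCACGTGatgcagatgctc
Lamp1: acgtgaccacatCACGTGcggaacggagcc
Ctsd: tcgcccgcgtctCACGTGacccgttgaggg
Mcoln1: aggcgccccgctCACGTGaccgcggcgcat

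In GRCm38.p6 these lie at chr16:44139373-44139402 on the minus strand for Atp6v1a, chr8:105566050-105566079 on the minus strand for Atp6v0d1, chr13:64370739-64370768 on the minus strand for Ctsl, chrX:134601182-134601211 on the minus strand for Gla and chr9:114401018-114401047 on the plus strand for Glb1. The stretch of Ctsa is chr2:164833749-164833778 on the plus strand, that of Lamp1 chr8:13159134-13159163 on the plus strand, that of Ctsd chr7:142387908-142387937 on the minus strand and that of Mcoln1 chr8:3500462-3500491 on the plus strand. Lamp1 held 4 copies within the 80 bases before its start (chr8:13159081-13159160, plus strand), shown whole because no other window of these genes held as many.
Lamp1 upstream: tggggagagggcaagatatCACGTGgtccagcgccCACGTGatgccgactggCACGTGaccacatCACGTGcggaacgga

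Library totals ran from 28483064 to 53138362 counts, and the 30 genes took about the same small share of each group: 0.253% ± 0.0154 in rat tail collagen, 0.243% ± 0.0220 in bovine collagen, 0.254% ± 0.00795 in media and 0.251% ± 0.0117 in naive cells (SD, n = 3 each). Ribosomal RNA genes took 5.22% to 13.4% of the counts in rat tail collagen and 5.65% to 12.02% in bovine collagen, against 4.60% to 4.86% in media and 4.03% to 5.79% in naive libraries. Malat1, a nuclear RNA, took 1.11% to 1.47% of the counts in rat tail collagen, 0.195% to 0.276% in bovine collagen, 0.179% to 0.295% in media and 0.678% to 0.857% in naive libraries. Mitochondrial genes took 1.70% to 2.39% in rat tail collagen, 1.41% to 1.64% in bovine collagen, 1.34% to 1.63% in media and 1.44% to 1.95% in naive libraries. The part of these shares in the results below was not tested beyond the alternatives on ribosomal RNA. The summed level of 8 T cell markers was 2430 to 2638 CPM (counts scaled to library size) in rat tail collagen, 3250 to 3558 CPM in bovine collagen, 3210 to 3633 CPM in media and 4254 to 4964 CPM in naive libraries. The summed level of 4 CD4 lineage markers, most of it Zbtb7b outside naive libraries, was 59.7 to 71.0 CPM in rat tail collagen, 29.5 to 36.3 CPM in bovine collagen, 25.5 to 38.0 CPM in media and 11.4 to 24.0 CPM in naive libraries. Cd4 itself was at 2.17 to 2.69 CPM in rat tail collagen and 2.01 to 3.86 CPM in media. Foxp3 was at 3.59, 4.00 and 19.4 CPM in rat tail collagen and 0.497, 0.877 and 4.23 CPM in media. Against media, 1 of these 4 was called higher and 3 were not called. The summed level of 4 NK cell markers, most of it Eomes, was 36.4 to 64.5 CPM in rat tail collagen, 70.0 to 71.7 CPM in bovine collagen, 70.3 to 77.9 CPM in media and 105 to 129 CPM in naive libraries, while Klrb1c alone averaged 8.70 CPM in rat tail collagen and 0.324 CPM in media. The part of such cells in the lysosome genes was not tested. The summed level of 14 myeloid markers was 3.34 to 12.4 CPM in rat tail collagen, 16.3 to 37.4 CPM in bovine collagen, 14.7 to 37.1 CPM in media and 39.7 to 157 CPM in naive libraries, and Cd209a, Clec9a, S100a8 and S100a9 were at 0 in all day 4 libraries.

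The lysosome genes changed in both directions in rat tail collagen, at about the rate of all genes. Against media, 10 of the 30 rose and 9 fell at an adjusted p under 0.05 (edgeR's quasi-likelihood test, adjusted over 19392 genes), or 63.3% of them, where 58.4% of all genes tested were called, 29.7% higher and 28.7% lower. The median log2 fold change of the 30 was 0.04, against -0.01 for all genes. The summed level of the 30 was 2421 ± 49.8 CPM in rat tail collagen and 2506 ± 134 CPM in media (SD, n = 3 each). Of the members, 5 rose by 2-fold or more (16% of all genes did) and 1 fell by as much (6.88% of all genes). Groups of libraries did not overlap for 18 of the 30 genes, 10 with rat tail collagen above media and 8 below, where 64.8% of all genes did not overlap. In bulk RNA, fewer cells of a type and less RNA per cell cannot be told apart, and with rat tail collagen libraries 1 and 3 and bovine collagen library 2 left out, the 3 of highest ribosomal RNA share, the counts were 6 higher and 5 lower. That fit has 1 rat tail collagen library, which is assumed to vary like the other groups.

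**Figure D1:**
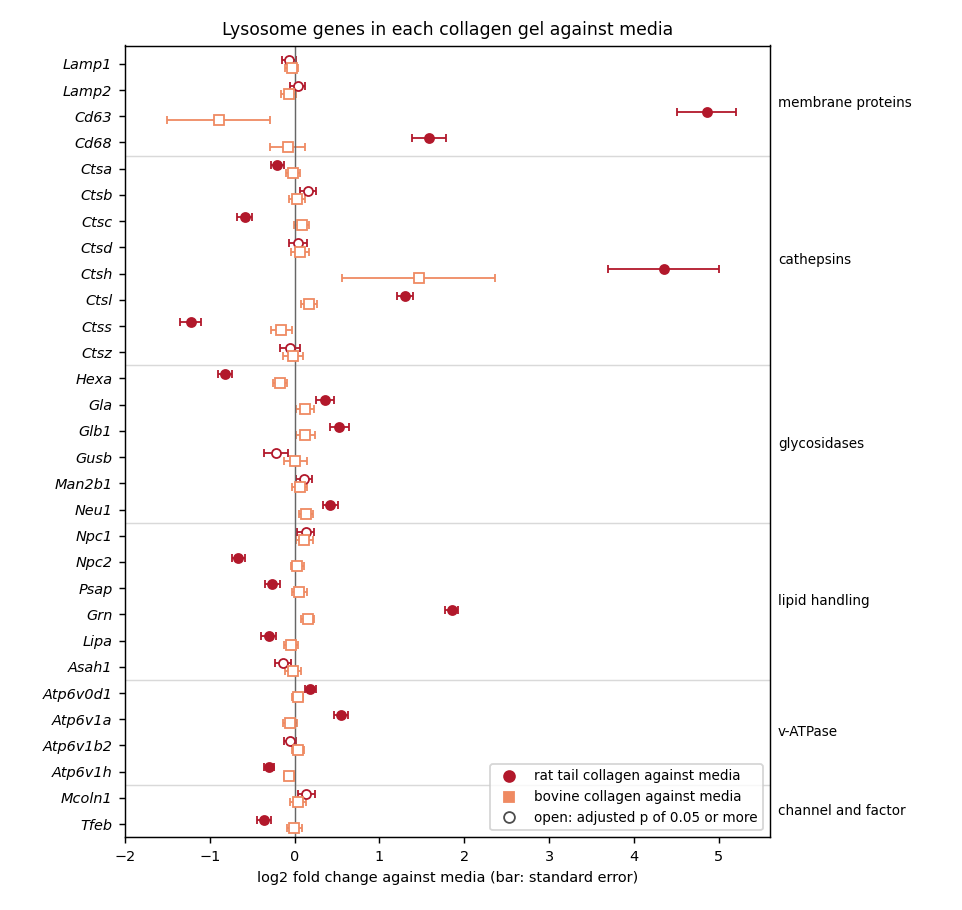
Log2 fold change against media (horizontal axis, bars are standard errors) of the 30 lysosome genes in rat tail collagen (circles) and bovine collagen (squares), grouped by role from top to bottom; filled symbols passed an adjusted p of 0.05. The rat tail collagen values spread from -1.22 for Ctss to 4.86 for Cd63, while the bovine collagen values of the 28 genes other than Cd63 and Ctsh stay between -0.18 and 0.17.

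The 4 membrane proteins split into a pair that rose steeply and a pair that did not pass the test. Cd63 encodes a tetraspanin of late endosomes, lysosomes and secretory granules, and lies at chr10:128900989-128912822 (GRCm38, plus strand). Its level was 5.51, 5.03 and 4.37 CPM in rat tail collagen, 0.139, 0 and 0.102 CPM in bovine collagen, 0.248, 0.162 and 0.0855 CPM in media, and 0.709, 0.394 and 0.458 CPM in naive cells. Every rat tail collagen library was above all 9 others, and the bovine collagen and media libraries overlapped. The log2 fold change against media was 4.86 ± 0.35 (SE, adjusted p = 5.44e-07), and the pooled counts, 637 in rat tail collagen and 24 in media, gave a ratio of 29.5 with an exact 95% interval of 19.7 to 46.4 that covers counting error only. The pseudogene Cd63-ps, a near copy on another chromosome that was looked up after its values were seen, moved with it (1.87 ± 0.149 CPM in rat tail collagen and 0.147 ± 0.00756 CPM in media, SD, n = 3 each, log2 fold change 3.63, adjusted p = 4.34e-06), so reads could have been split between the gene and its copy.

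Cd68, a heavily glycosylated LAMP-family protein best known from macrophages (chr11:69664213-69666153, minus strand), had 17.6, 15.7 and 23.2 CPM in rat tail collagen, 4.85, 5.75 and 7.03 CPM in bovine collagen, 4.81, 6.09 and 7.78 CPM in media, and 8.98, 6.14 and 6.17 CPM in naive cells. The rat tail collagen libraries stood above all others, and the remaining 3 groups overlapped. Its log2 fold change against media was 1.58 ± 0.20 (SE, adjusted p = 4.12e-05). Of the 14 myeloid markers, whose summed levels are given above, 3 were tested and Cd14 was the one higher, at 1.08, 0.771 and 0.857 CPM in rat tail collagen and 0.153, 0.0692 and 0.0428 CPM in media, while Itgax and Itgam were lower. Lyz2 was at 0, 0 and 0.0286 CPM and Csf1r at 0, 0.0335 and 0 CPM in rat tail collagen, and Adgre1 was at 0.359, 0.134 and 0.143 CPM there and 0.0382, 0.0462 and 0.0428 CPM in media. Rat tail collagen libraries summed to 72.5 to 78.0 CPM over 8 stromal markers, with media libraries at 131 to 147 CPM. Most of this was Pecam1, which was lower, while 2 of the 3 stromal markers tested were higher. Col1a1 had 4.88, 3.84 and 4.14 CPM in rat tail collagen libraries, with media libraries at 0.287, 0.369 and 0.278 CPM. Of 8 red cell and platelet markers, 4 were tested, with 1 higher and 1 lower. The part of myeloid, stromal, red cell or platelet RNA in Cd68, Cd63 and the other lysosome genes was not tested. Lamp1 and Lamp2, the main structural glycoproteins of the lysosomal membrane, were not called: Lamp1 averaged 172 ± 9.10 CPM in rat tail collagen and 179 ± 18.1 CPM in media, with a 95% interval of the log2 fold change from -0.24 to 0.11. Lamp2 averaged 52.2 ± 3.90 CPM in rat tail collagen and 50.6 ± 3.70 CPM in media, with an interval from -0.16 to 0.23.

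**Figure D2:**
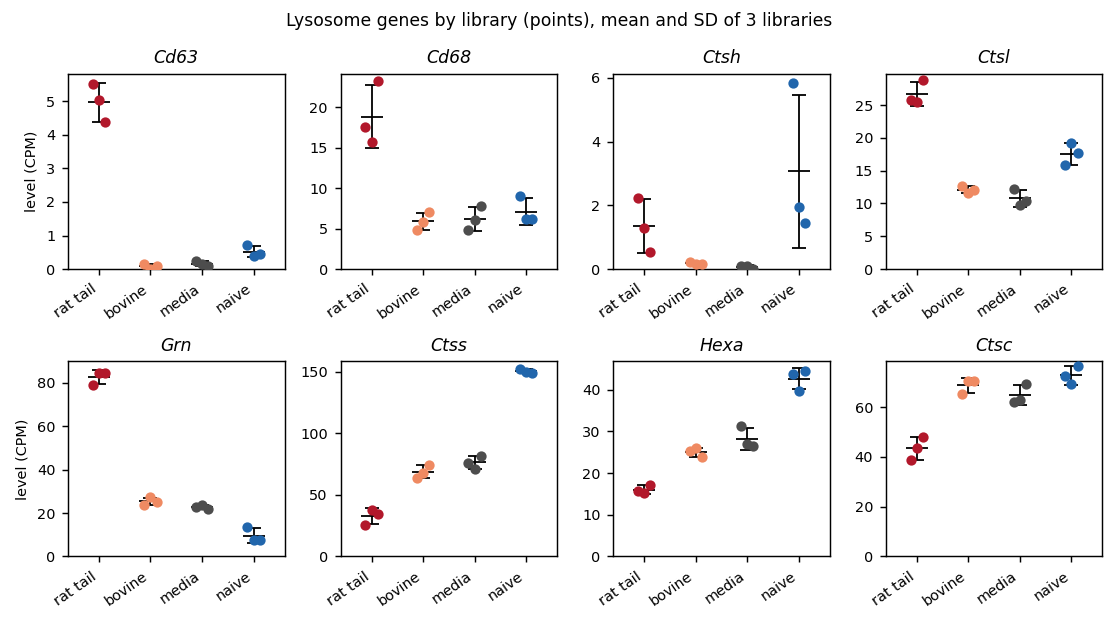
Level in CPM (vertical axis, linear and from 0) of 8 lysosome genes in each library (points), with the mean and SD of the 3 libraries of each group (bars), for rat tail collagen, bovine collagen, media and naive cells from left to right. Cd63, Cd68, Ctsl and Grn are higher in all 3 rat tail collagen libraries than in all bovine collagen and media libraries, and Ctss, Hexa and Ctsc are lower.

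Of the 8 cathepsins, the proteases of the lysosome, 2 rose, 3 fell and 3 were not called against media. Ctsl encodes cathepsin L, a cysteine protease active in many tissues (chr13:64359337-64370890, minus strand), and had 25.8, 25.5 and 28.8 CPM in rat tail collagen, 12.7, 11.6 and 12.04 CPM in bovine collagen, 12.2, 9.76 and 10.4 CPM in media, and 15.8, 19.2 and 17.7 CPM in naive cells. Rat tail collagen was the highest group, naive cells came next, and the bovine collagen and media libraries overlapped. The log2 fold change against media was 1.30 ± 0.09 (SE, adjusted p = 6.02e-07).

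Ctss encodes cathepsin S, which stays active at neutral pH and in antigen-presenting cells trims the invariant chain of MHC class II (chr3:95526786-95556403, plus strand). It went the other way, with 25.9, 37.9 and 34.5 CPM in rat tail collagen, 63.8, 67.6 and 74.2 CPM in bovine collagen, 76.0, 71.1 and 81.7 CPM in media, and 152, 150 and 149 CPM in naive cells. Rat tail collagen libraries were all below the rest and naive libraries all above, with bovine collagen and media overlapping in between. The log2 fold change of rat tail collagen against media was -1.22 ± 0.12 (SE, adjusted p = 6.57e-06), so Ctss and Ctsl, both cysteine proteases, moved in opposite directions in the same libraries. The summed level of the myeloid markers, most of it Itgax and Itgam, was lower too, and that of 6 B cell markers was 7.81 to 9.23 CPM in rat tail collagen and 12.7 to 15.5 CPM in media. Most of the B cell sum was Cd79b, which was lower, while Cd79a was higher (0.569, 0.737 and 1.43 CPM in rat tail collagen and 0.401, 0.415 and 0.471 CPM in media). Their part in the change of Ctss was not tested.

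Ctsh, an aminopeptidase of the same family (chr9:90054152-90076089, plus strand), was barely detected on day 4: 2.24, 1.29 and 0.543 CPM in rat tail collagen, 0.223, 0.159 and 0.153 CPM in bovine collagen, and 0.0955, 0.0923 and 0 CPM in media. Naive libraries had 5.83, 1.94 and 1.45 CPM. Rat tail collagen was above the other day 4 groups in every library, but its own libraries were far apart. The log2 fold change against media was 4.35 ± 0.65 (SE, adjusted p = 1.49e-04), on 171 counts in rat tail collagen against 9 in media, a ratio of 21.1 with an exact 95% interval of 10.9 to 47.0. That interval covers counting error only, and the rat tail collagen libraries held 75, 77 and 19 counts, a spread that it leaves out.

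Ctsc, which cuts the activation dipeptide from granzymes, fell to 43.4 ± 4.79 CPM in rat tail collagen, against 64.8 ± 3.98 CPM in media (SD, n = 3 each; log2 fold change -0.59, adjusted p = 1.35e-04). Ctsa, the carboxypeptidase that shields other hydrolases from degradation, averaged 129 ± 9.996 CPM in rat tail collagen and 148 ± 9.21 CPM in media (log2 fold change -0.20, adjusted p = 0.0439), but its libraries overlapped and the call was lost in 11 of 19 alternative analyses. The aspartic protease gene Ctsd and the cysteine protease genes Ctsb and Ctsz were not called, with log2 fold changes of 0.04, 0.15 and -0.05.

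Among the 6 glycosidases, which strip sugars from glycoproteins and glycolipids, 3 rose, 1 fell and 2 were not called. Glb1, the acid beta-galactosidase, averaged 74.7 ± 12.1 CPM in rat tail collagen and 51.6 ± 4.78 CPM in media (log2 fold change 0.53, adjusted p = 0.00183). Neu1, the sialidase that works in a complex with the products of Glb1 and Ctsa, averaged 46.3 ± 1.88 CPM in rat tail collagen and 34.3 ± 2.09 CPM in media (log2 fold change 0.42, adjusted p = 0.00114), although the change was 0.24 with offsets for GC content and length. Gla, alpha-galactosidase A, averaged 14.3 ± 0.227 CPM in rat tail collagen and 11.1 ± 0.969 CPM in media (log2 fold change 0.36, adjusted p = 0.0105). All 3 had rat tail collagen libraries wholly above media. Without the 3 libraries of highest ribosomal RNA share, the log2 fold changes were 0.38 for Glb1, 0.36 for Neu1 and 0.36 for Gla. With 1 rat tail collagen library left, that fit cannot decide their calls.

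Hexa, the alpha subunit of beta-hexosaminidase A, was the glycosidase that fell, to 16.1 ± 0.992 CPM in rat tail collagen, against 28.2 ± 2.61 CPM in media (log2 fold change -0.83, adjusted p = 7.85e-06). Man2b1, lysosomal alpha-mannosidase, and Gusb, beta-glucuronidase, were not called, at log2 fold changes of 0.11 and -0.22.

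The lipid-handling genes held the member with the smallest adjusted p of the 30. Grn encodes progranulin, which can be carried to lysosomes with prosaposin and cut into granulins there (chr11:102430315-102437048, plus strand). It had 78.8, 84.3 and 84.4 CPM in rat tail collagen, 23.8, 27.2 and 25.0 CPM in bovine collagen, 22.6, 23.8 and 21.8 CPM in media, and 13.4, 7.48 and 7.76 CPM in naive cells. Rat tail collagen was far above the other groups with little spread, and naive cells were below every day 4 library. Bovine collagen was not called against media, and its lowest library and the highest media library were both at 23.8 CPM after rounding. The log2 fold change of Grn in rat tail collagen against media was 1.85 ± 0.08 (SE, adjusted p = 9.79e-09).

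Psap, the precursor of the saposins that present glycolipids to their hydrolases, went against its carrier partner Grn, at 397 ± 24.7 CPM in rat tail collagen and 473 ± 27.3 CPM in media (log2 fold change -0.26, adjusted p = 0.0264), and its call was lost in 5 of 19 alternatives. Npc2, the soluble protein that hands cholesterol to Npc1 in the lysosomal membrane, fell to 177 ± 7.19 CPM in rat tail collagen, against 279 ± 24.9 CPM in media (log2 fold change -0.66, adjusted p = 1.97e-05). Npc1 itself was not called, at 151 ± 11.4 CPM in rat tail collagen and 137 ± 10.4 CPM in media. Lipa, the acid lipase that releases cholesterol from its esters, fell to 49.7 ± 2.12 CPM in rat tail collagen, against 61.2 ± 5.55 CPM in media (log2 fold change -0.31, adjusted p = 0.00846). The call of Lipa was lost in 2 of 19 alternatives against media and in 7 of 19 against bovine collagen. Asah1, acid ceramidase, was not called.

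The 4 v-ATPase subunits did not move as 1 block. Atp6v1a, the catalytic subunit of the cytosolic V1 sector, rose to 103 ± 8.95 CPM in rat tail collagen, against 70.3 ± 5.20 CPM in media (log2 fold change 0.55, adjusted p = 1.45e-04). Its neighbour in the catalytic ring, Atp6v1b2, was not called (log2 fold change -0.06, 95% interval -0.21 to 0.10). Atp6v1h, the regulatory H subunit, fell to 35.1 ± 1.40 CPM in rat tail collagen, against 42.9 ± 0.667 CPM in media (log2 fold change -0.30, adjusted p = 0.00155), a change of -0.19 that did not pass with GC and length offsets. Atp6v0d1, which links the membrane sector to the stalk, averaged 50.1 ± 0.141 CPM in rat tail collagen and 43.7 ± 2.40 CPM in media (log2 fold change 0.19, adjusted p = 0.0371), and this call was lost in 10 of 19 alternatives.

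Of the 2 control genes, Tfeb fell and Mcoln1, the calcium channel whose current favours TFEB's entry to the nucleus, was not called. Tfeb averaged 11.5 ± 0.586 CPM in rat tail collagen and 14.8 ± 1.12 CPM in media (log2 fold change -0.36, adjusted p = 0.00332), and its change was -1.06 with GC and length offsets. Its relatives Tfe3 and Mitf, looked up after their values were seen, were higher: Tfe3 averaged 45.0 ± 3.502 CPM in rat tail collagen and 21.5 ± 3.51 CPM in media (log2 fold change 1.05, adjusted p = 3.95e-05). Mitf averaged 4.00 ± 0.152 CPM in rat tail collagen and 2.16 ± 0.596 CPM in media (log2 fold change 0.88, adjusted p = 0.00273). The fourth relative, Tfec, did not pass the filter on low counts. Without the 3 libraries of highest ribosomal RNA share, the log2 fold change was -0.35 for Tfeb and 0.88 for Mitf. That fit leaves 1 rat tail collagen library and cannot decide their calls. By outcome, CACGTG stood in the window of 5 of the 9 members that rose and have one, 1 of the 8 that fell (Ctsa) and 3 of the 7 that were not called. The 4 members with the largest increases and a window divided likewise, with the motif in that of Ctsl and not in those of Grn, Cd63 and Cd68.

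**Figure D3:**
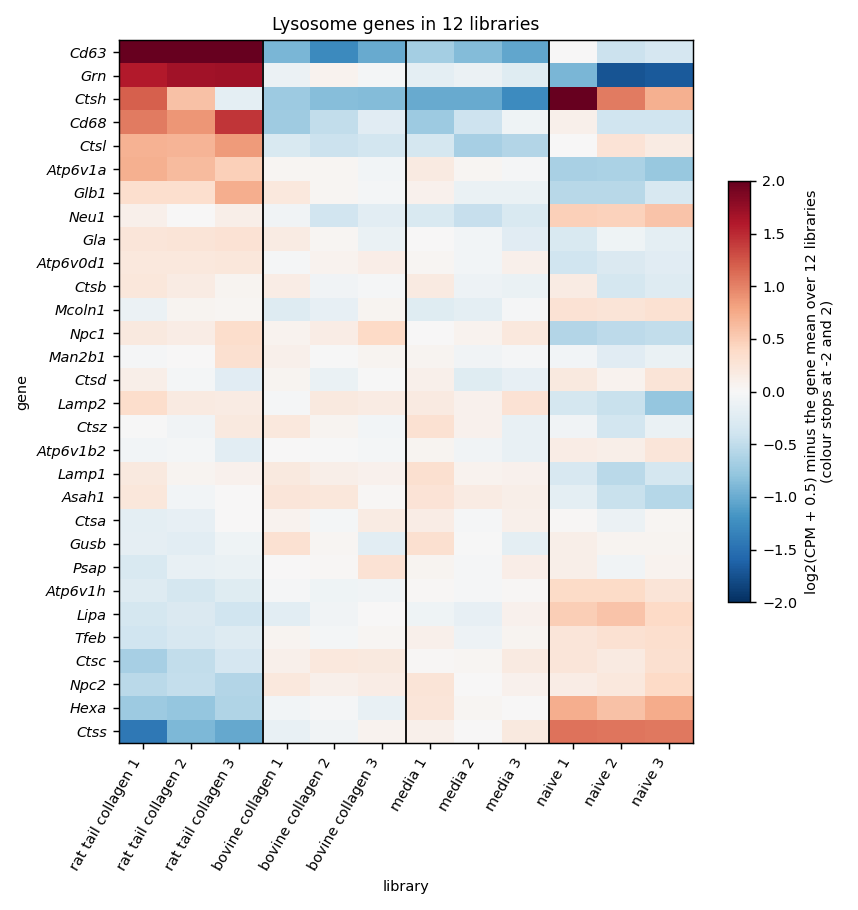
Level of the 30 lysosome genes (rows, ordered by their difference between rat tail collagen and media) in the 12 libraries (columns), as log2(CPM + 0.5) minus the gene's mean over the 12 libraries, with colour stopping at -2 and 2. Rat tail collagen columns are red at the top (Cd63, Grn) and blue at the bottom (Hexa, Ctss), bovine collagen and media columns look alike, and naive columns are blue for Grn and red for Ctss.

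Bovine collagen gave no call among the 30 genes against media, where 0.0206% of all genes tested, or 4 genes, were called, all of them higher. At an unadjusted p under 0.05 there were 0 of the 30, against 810 of the 19392 genes tested, or 4.18%, and DESeq2 also called 0 of the 30. Apart from Cd63 and Ctsh, whose low counts gave wide intervals, the log2 fold changes lay between -0.18 and 0.17 and their 95% intervals between -0.54 and 0.38. Cd63 was at -0.89 (95% interval -2.23 to 0.44) and Ctsh at 1.46 (-0.51 to 3.44). Pooled Ctsh counts were 18 in bovine collagen and 9 in media. Their ratio was 2.84, with an exact 95% interval of 1.21 to 7.18 for counting error only. Groups did not overlap for 3 of the 30 (Ctsh and Grn above, Hexa below), and 8.78% of all genes did not overlap. The summed level of the 30 was 2556 ± 83.3 CPM in bovine collagen.

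Set directly against bovine collagen, rat tail collagen had 8 of the 30 genes higher and 8 lower, where 54.7% of all genes were called, 28.4% higher and 26.4% lower, and 19 of the 30 did not overlap between the groups, where 63.8% of all genes did not. This comparison shares its rat tail collagen libraries with the one against media, so the values are given side by side and not as a second observation. The log2 fold change was 5.75 against bovine collagen and 4.86 against media for Cd63, 1.70 and 1.85 for Grn, 1.66 and 1.58 for Cd68, and 1.13 and 1.30 for Ctsl. Those of the genes that fell were -1.07 against bovine collagen and -1.22 against media for Ctss, -0.70 and -0.66 for Npc2, -0.67 and -0.59 for Ctsc, and -0.65 and -0.83 for Hexa. Ctsa, Gla and Atp6v0d1 did not pass against bovine collagen, with adjusted p-values of 0.0668, 0.0723 and 0.0873. When libraries were scaled by their totals alone, 10 of the 30 were higher and 4 lower than in bovine collagen, the median of all genes moved to 0.15, and 66.3% of all calls were higher, against 51.8% with TMM scaling. Without the 3 libraries of highest ribosomal RNA share, which leaves 1 rat tail collagen library, 6 were higher and 4 lower, and among calls lost there the log2 fold change was -0.31 for Psap, -0.37 for Tfeb, -0.31 for Atp6v1h, 0.25 for Glb1 and 0.15 for Neu1.

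Activation and culture without a gel went with changes in both directions, again at about the rate of all genes. In media against naive cells, 9 of the 30 were higher and 9 lower, or 60%, where 60.8% of the 18610 genes tested were called (31.6% higher and 29.2% lower), and the median log2 fold change was -0.02. Libraries did not overlap for 19 of the 30, where 67.6% of all genes did not overlap. Grn rose (log2 fold change 1.31, adjusted p = 4.94e-04), as did both LAMP genes: Lamp1 averaged 179 ± 18.1 CPM in media and 121 ± 9.38 CPM in naive cells (0.63, adjusted p = 3.17e-04), and Lamp2 50.6 ± 3.70 CPM in media and 31.0 ± 4.73 CPM in naive cells (0.77, adjusted p = 4.38e-04). Npc1 rose to 137 ± 10.4 CPM in media, against 88.1 ± 2.67 CPM in naive cells (0.70), and Atp6v1a to 70.3 ± 5.20 CPM, against 42.0 ± 2.16 CPM in naive cells (0.81). Asah1, Glb1, Atp6v0d1 and Ctsz rose by 0.35 to 0.66 on the log2 scale, but the libraries of Ctsz overlapped and its call was lost in 6 of 15 alternatives.

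The genes lower in media than in naive cells were led by Ctsh and Cd63, and their values by library are given above. Ctsh changed by -5.48 on the log2 scale (adjusted p = 2.82e-04), on 9 counts in media against 356 in naive cells, a ratio of 0.0209 with an exact 95% interval of 0.00947 to 0.0401 for counting error only. Naive library 1 was the highest for Ctsh and also for the 14 myeloid markers, with Lyz2 at 60.3, 28.4 and 16.5 CPM and Csf1r at 42.6, 8.13 and 8.46 CPM in naive libraries 1, 2 and 3. Both markers were under 0.14 CPM in every media library. Of the other genes given by library, Cd63, Cd68, Grn and, by a little, Ctss also had their highest naive level in naive library 1, while Ctsl had its lowest. The part of such cells in the naive levels of Ctsh and these genes was not tested. Cd63 changed by -1.56 (adjusted p = 0.0115), with 24 counts in media and 61 in naive cells.

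Ctss fell by 0.91 on the log2 scale in media, Neu1 by 0.80, Ctsl by 0.64, Hexa by 0.53 and Lipa by 0.47, all with libraries wholly below those of naive cells. The 6 B cell markers summed to 12.7 to 15.5 CPM in media and 17.7 to 23.2 CPM in naive libraries, and their part in these changes was not tested. Mcoln1 fell by 0.38 and Atp6v1h by 0.28. Tfeb changed by -0.23 with libraries below naive ones, at an adjusted p of 0.0522 that passed in 7 of 15 alternatives. Neu1 and Ctsl were thus lower in media than in naive cells, yet both rose in rat tail collagen over media, and the media libraries serve in both comparisons. In rat tail collagen against naive cells Neu1 was lower (46.3 ± 1.88 CPM in rat tail collagen and 62.4 ± 2.37 CPM in naive cells, log2 fold change -0.43) and Ctsl higher (26.7 ± 1.79 CPM in rat tail collagen and 17.6 ± 1.68 CPM in naive cells, 0.61).

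In rat tail collagen against naive cells, 13 of the 30 were higher and 12 lower, where 71.9% of the 19449 genes tested were called, 36.5% higher and 35.4% lower. The steepest were Cd63 (log2 fold change 3.26), Grn (3.12, about 8.67-fold), Cd68 (1.41) and Atp6v1a (1.30) among those higher and Ctss (-2.19), Hexa (-1.41), Lipa (-0.83) and Npc2 (-0.79) among those lower. All 4 membrane proteins were higher than in naive cells, and both control genes were lower. Groups did not overlap for 26 of the 30, where 76.2% of all genes did not overlap. Ctsh, Ctsa, Ctsb, Ctsd and Ctsz did not pass, with adjusted p-values of 0.175, 0.298, 0.0702, 0.0647 and 0.0508. Of the 16 alternatives, Ctsz passed in 10, Ctsd in 5, Ctsb in 4, Ctsh in 2 and Ctsa in 1.

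Set against each other per length of exon, the 30 genes kept much of their order in the 4 groups. Psap had the highest level in each, at 145 CPM per kb in rat tail collagen, 179 in bovine collagen, 172 in media and 170 in naive cells, and Ctsd, Lamp1 and Npc2 were among the first 5 everywhere. Cd63 and Ctsh were the lowest pair in each group, so the steepest fold changes belong to the scarcest transcripts. Grn moved furthest in rank, at 23.8 CPM per kb and rank 11 in rat tail collagen, 7.29 and rank 20 in bovine collagen, 6.54 and rank 21 in media, and 2.75 and rank 27 in naive cells. Hexa was at 8.04 CPM per kb and rank 19 in rat tail collagen, 12.5 and rank 13 in bovine collagen, 14.2 and rank 12 in media, and 21.4 and rank 8 in naive cells. Cd68 was at rank 14 in rat tail collagen and at rank 23 in bovine collagen and media. Ctss was at 24.2 CPM per kb and rank 10 in rat tail collagen, 50.5 and rank 5 in bovine collagen, 56.2 and rank 4 in media, and 111 and rank 2 in naive cells.

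The rest of the lysosomal machinery was read from 9 further lists, whose counts stand beside the 29.7% of all genes tested that were higher in this comparison and the 28.7% that were lower. In rat tail collagen against media, 21 of 40 other lysosomal enzymes rose and 13 fell (85% called, against 58.4% of all genes), with a median log2 fold change of 0.25. Ppt1, which removes palmitate from proteins, averaged 127 ± 12.04 CPM in rat tail collagen and 56.6 ± 1.71 CPM in media (log2 fold change 1.15, adjusted p = 2.38e-07), and Tpp1, the tripeptidyl peptidase, 99.7 ± 2.13 CPM in rat tail collagen and 50.9 ± 1.11 CPM in media (0.96, adjusted p = 3.10e-07). Acp5, an acid phosphatase, fell to 28.1 ± 1.69 CPM in rat tail collagen, against 136 ± 11.1 CPM in media (-2.28, adjusted p = 1.61e-08). Without the 3 libraries of highest ribosomal RNA share, 8 of these enzymes were called lower.

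**Figure D4:**
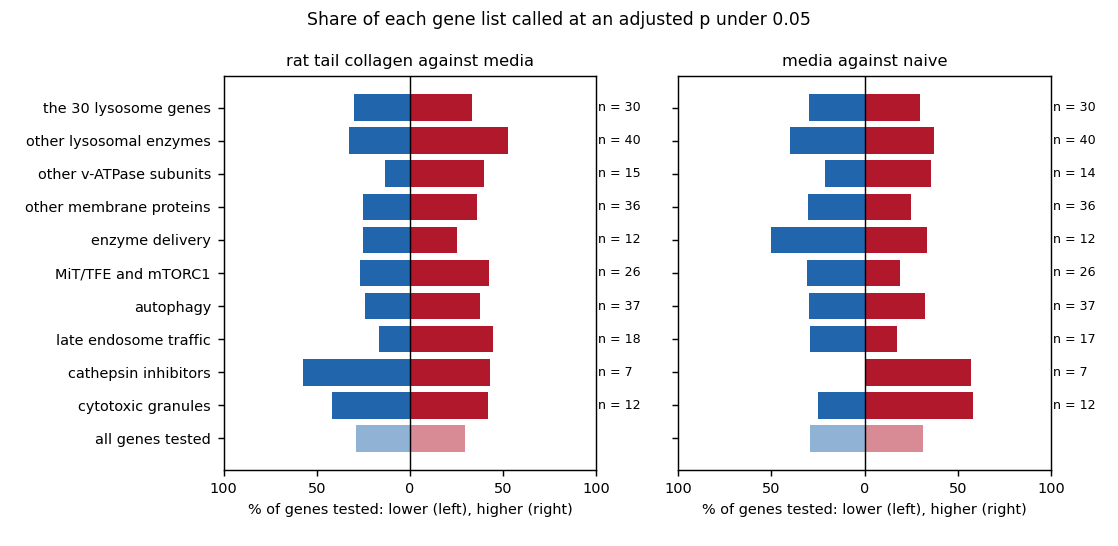
Percent of the genes tested in each list (n beside each bar) that were called higher (red, to the right) or lower (blue, to the left) at an adjusted p under 0.05, in rat tail collagen against media on the left and in media against naive cells on the right, with all genes tested in the bottom bars. In both comparisons the 30 lysosome genes have bars of similar length on either side, as all genes tested do.

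Of 15 other v-ATPase subunits tested, 6 rose and 2 fell against media (median 0.18), with Atp6v0b, a membrane-sector subunit, at 0.71 and Atp6v0c, which forms the proton-carrying ring, at 0.67. Tcirg1, another membrane-sector subunit, was at 0.37 (adjusted p = 9.15e-04) but at -0.12 with GC and length offsets. The 2 subunits that fell were 1 when rat tail collagen library 3 or media library 1 was left out. Of 36 other membrane proteins and transporters, 13 rose and 9 fell (median 0.08), led by Hgsnat, which acetylates heparan sulfate for its breakdown, at 117 ± 25.5 CPM in rat tail collagen and 26.2 ± 2.02 CPM in media (log2 fold change 2.15, adjusted p = 2.70e-07), and Slc29a3, a nucleoside transporter, at 1.28. The count lower was 15 with GC and length offsets and 5 without the 3 libraries of highest ribosomal RNA share.

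Genes that deliver enzymes to lysosomes split 3 higher and 3 lower of 12 (median 0.16). Sort1, a sorting receptor, averaged 21.1 ± 2.21 CPM in rat tail collagen and 2.51 ± 0.512 CPM in media (log2 fold change 3.05, adjusted p = 4.25e-08), while Gnptab and Gnptg, subunits of the enzyme that starts the mannose 6-phosphate tag, changed by -1.37 and -0.44. With GC and length offsets this list had 1 higher and 5 lower. Of 26 genes of the MiT/TFE factors and mTORC1 signalling, 11 rose and 7 fell (median 0.12). Rragd, a Rag GTPase that holds mTORC1 at the lysosome, averaged 41.5 ± 5.87 CPM in rat tail collagen and 2.81 ± 0.367 CPM in media (log2 fold change 3.88, adjusted p = 3.06e-09). Mtor was at 0.52, or 0.19 with GC and length offsets, and Rptor, the mTORC1 scaffold, at -0.91. Without the 3 libraries of highest ribosomal RNA share, 6 of the 26 rose.

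All 7 tested inhibitors of cathepsins and other granule or lysosomal proteases changed, where 58.4% of all genes did, 3 higher and 4 lower (median -1.16), and 1 was higher without the 3 libraries of highest ribosomal RNA share. Cst7, cystatin F, which restrains Ctsc in cytotoxic cells, fell to 18.1 ± 2.67 CPM in rat tail collagen, against 81.5 ± 14.5 CPM in media (log2 fold change -2.18, adjusted p = 2.57e-07), beside the fall of Ctsc itself. Cstb, a cytosolic inhibitor of cysteine cathepsins that include cathepsin L, rose to 23.5 ± 0.883 CPM in rat tail collagen, against 12.1 ± 2.08 CPM in media (0.95, adjusted p = 2.97e-05). Of 37 autophagy genes, 14 rose and 9 fell (62.2% called, median -0.01), with Atg7 at -1.02 and Atg3 at -0.95. The count higher was 9 without media library 2. Of 18 genes of late endosome traffic, 8 rose and 3 fell (61.1% called, median 0.20), with Lyst, a regulator of lysosome size, at 549 ± 17.8 CPM in rat tail collagen and 273 ± 32.7 CPM in media (0.99). Of 12 cytotoxic granule genes, 5 rose and 5 fell (83.3% called, median 0.17), with Srgn, the granule proteoglycan, at 0.85 and Nkg7, a granule membrane protein, at -0.78, and the count higher was 3 without media library 3. In bovine collagen against media, 0 genes of these 9 lists were called.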

How the data were processed

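RNA was extracted with a DNase I step, and 150 ng per sample was depleted of ribosomal RNA before library preparation, per the labels' protocols. Per the submitters' processing notes, reads were handled with HISAT2, SAMtools, Picard and featureCounts on GRCm38/mm10. Versions, the annotation release and the strand setting were not found in these sources. The deposited values are raw counts per gene, made by the authors with featureCounts. Without the strand setting, reads of overlapping genes on opposite strands cannot be told apart. Such overlap covered 26.9% of the exon length of Ctsl and 12.8% of Ctsb and Hexa. In Ctsa it was 10.5% with Pltp and 6.87% with Neurl2, and in the others at most 9.31% (Lamp1). On the same strand, 34.4% of the exon length of Ctsd is shared with a gene that had 0 counts in all libraries. Ctsl shares 6.09% with the pseudogene Gm49230 and Glb1 5.49% with Tmppe.

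From the counts, edgeR 4.0.16 (R 4.3.3; filterByExpr, TMM, robust quasi-likelihood F test) gave log2 fold changes, with Benjamini-Hochberg adjustment across every gene in the fit and calls at an adjusted p under 0.05. The 9 day 4 libraries shared 1 fit (biological coefficient of variation 12.3%), and each comparison with naive cells was fitted on its 6 libraries (13.6% for media and 12.0% for rat tail collagen). CPM are on 1 TMM scale over the 12 libraries, and CPM per kb divide by the exon length in GENCODE M21 (GRCm38). Promoters are RefSeq windows of GRCm38.p6. The fit was run on simulated counts in which few genes were changed, up or down at equal odds. That setting cannot decide how the scaling behaves where most genes are called, as they were in every comparison but bovine collagen against media. Replicates differed by more than sampling noise (chi-square per degree of freedom 12.4 or more). Replicate numbers recur across groups, but nothing says that a number marks a mouse. Deviations from group means correlated at -0.03 to 0.44 between same-numbered libraries of different groups and at -0.41 to 0.14 between differently numbered ones. Media and bovine collagen libraries correlated at 0.37 for number 1, 0.03 for number 2 and 0.44 for number 3. The main fit used no block, and whether a number marks a shared source was not tested. Alternatives were RLE size factors, library totals, DESeq2 1.42.0, other filters, 1 fit of all 12 libraries, a replicate block and leaving out each library; removal of ribosomal RNA genes, leaving out 3 libraries and GC and length offsets were added after seeing the data. The 30 genes and the other lists were chosen with earlier results of these data known. Members that changed by 2-fold or more in rat tail collagen against media or in media against naive cells are given by library; of each further list, the text takes from the up to 4 genes of smallest adjusted p with at least 5 CPM in the higher group, except Tfe3, Mitf, Tfec and Cd63-ps. 1 gene of a further list is not reported here.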

Additional observations from a re-analysis of the deposited data

How the results depend on the processing

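Over the alternatives, 2497 of 2636 values of the 30 genes stayed on their side of the threshold, 77 lost the call, 62 gained it and 0 called values reversed. Values of genes that were not called could change sign, as for Lamp2 (-0.02 to 0.13) and Man2b1 (-0.18 to 0.18) in rat tail collagen against media. The fit without the libraries of highest ribosomal RNA share leaves too few rat tail collagen libraries to decide calls. In the other alternatives of rat tail collagen against media, Cd63, Cd68, Ctsl, Ctss, Grn, Hexa, Npc2, Ctsc and Atp6v1a kept their calls. The values tallied above include that fit. So do the counts out of 19 for Ctsa, Psap, Lipa and Atp6v0d1, where the call lost in it decides nothing. Of the other genes named, Tcirg1 reversed, at -0.12 against media and -0.18 against bovine collagen with GC and length offsets. The cause of these shifts was not tested.

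The median log2 fold change of the 30 in rat tail collagen against media was 0.062 with RLE size factors, 0.0618 with DESeq2, 0.10 with library totals, -0.014 with no filter, 0.0909 with at least 1 CPM in 3 libraries, 0.0063 without the 3 libraries of highest ribosomal RNA share and -0.0927 with GC and length offsets. Library totals gave 5 of the 30 lower there. Leaving out those 3 libraries gave 6726 genes called, with 6 of the 30 higher and 5 lower. For bovine collagen against media, the genes called were 9 with library totals, 22 with DESeq2, 39 with no filter, 7 with the replicate block and 1 without the 3 libraries, and the median was -0.0551 with library totals and 0.000513 with GC and length offsets. For rat tail against bovine collagen, library totals gave 4 lower and a median of 0.14. Leaving out the 3 libraries gave 5485 genes called, 4 lower and a median of -0.0657, and GC and length offsets a median of -0.07005. In rat tail collagen against naive cells the median was -0.14 with GC and length offsets.

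Leaving out 1 library at a time, the counts of the 30 in rat tail collagen against media were 9 to 10 higher and 7 to 9 lower, with 9986 to 11723 genes called and a median of -0.0219 to 0.0595. Against bovine collagen they were 7 to 9 higher and 6 to 9 lower, with 9346 to 11471 genes called and a median of -0.03 to 0.04. In media against naive cells they were 8 to 10 higher and 9 to 12 lower (10136 to 11310 genes, median -0.06 to 0.05), and in rat tail collagen against naive cells 12 to 15 higher and 10 to 13 lower (12891 to 14053 genes, median -0.0041 to 0.12). Bovine collagen against media kept 0 and 0 (2 to 5 genes, median -0.0081 to 0.0446). With the replicate block, the 30 split 11 higher and 9 lower in rat tail collagen against media, 9 and 9 against bovine collagen, 9 and 9 in media against naive cells and 15 and 14 in rat tail collagen against naive cells.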

Other observations

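In media against naive cells, 60.8% of all genes tested were called, 31.6% higher and 29.2% lower, and the lists around the lysosome are set beside that. Of 40 other lysosomal enzymes, 15 rose and 16 fell (77.5% called, median log2 fold change -0.09). Scpep1, a serine carboxypeptidase, averaged 40.6 ± 0.540 CPM in media and 5.20 ± 0.552 CPM in naive cells (log2 fold change 3.03, adjusted p = 1.55e-08). Ctsw, a cathepsin of cytotoxic lymphocytes, fell to 183 ± 9.96 CPM in media, against 381 ± 23.0 CPM in naive cells (-0.99). Of the 7 protease inhibitors tested, 4 rose and 0 fell (57.1% called), led by Serpinb1a, which inhibits neutrophil-type serine proteases, at 2.33 and Serpinb6b at 2.31, while Serpinb9, the granzyme B inhibitor, was at 0.72.

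Cytotoxic granule genes split widely in the same comparison, with 7 of 12 higher and 3 lower (83.3% called, median 0.44). Gzmb averaged 377 ± 135 CPM in media and 5.19 ± 1.45 CPM in naive cells (log2 fold change 6.24, adjusted p = 7.52e-06), and the pore-forming Prf1 8.83 ± 3.30 CPM in media and 119 ± 0.672 CPM in naive cells (-3.69, adjusted p = 6.32e-06). Of 37 autophagy genes, 12 rose and 11 fell (62.2% called, median 0.01). Gabarapl1, which conjugates to autophagosome membranes, averaged 38.9 ± 3.67 CPM in media and 3.99 ± 1.04 CPM in naive cells (3.35, adjusted p = 3.44e-07), and Map1lc3b of the same family 63.8 ± 3.09 CPM in media and 110.0 ± 5.04 CPM in naive cells (-0.72). Of 26 genes of the MiT/TFE factors and mTORC1 signalling, 5 rose and 8 fell (50% called, median -0.06), with Sesn2, a leucine sensor, at 1.59 and Tsc1, an mTORC1 inhibitor, at -0.66. NK cell markers were lower in media too, with summed levels of 70.3 to 77.9 CPM in media and 105 to 129 CPM in naive cells over 4 genes, and their part in the Prf1 and Ctsw values was not tested.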
